A study of Homo sapiens with 9 samples.

Results

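The 10 genes described here are HIF1A and EPAS1, which encode the oxygen-regulated subunits of the hypoxia-inducible factors (HIFs), and 8 of their best known direct targets: EGLN1, EGLN3, BNIP3, BNIP3L, CA9, VEGFA, ADM and ANKRD37. They were chosen by gene symbol, with earlier results of these data known. Each of the 10 was found once among the 58395 Ensembl genes listed for every library. All 10 passed the filter on low counts, as did 16575 genes in all. The libraries are RNA-seq of the human line MDA-MB-231, which stems from a triple-negative breast cancer and has mesenchymal character, grown in DMEM with serum, and the labels name no lowered oxygen. Cells were reverse transfected for 96 h with a first siRNA against SKP2 (SKP2-1), with a second siRNA against SKP2 (SKP2-2), or with a nontargeting control siRNA (NC), and each group has 3 libraries. The title and labels give the target as SKP2 and the design text gives it as ZIP7, so the transcripts of both SKP2 and SLC39A7 (the gene of ZIP7) are reported. The labels do not state whether the libraries of a group come from separate cultures. The p-values below therefore cover only the variation among these libraries, which may be technical.

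In cells with enough oxygen, the EGLN prolyl hydroxylases (also called PHD enzymes) hydroxylate the HIF alpha subunits, and the VHL ubiquitin ligase then marks them for destruction. When oxygen is short, HIF1A and EPAS1 protein escapes this, pairs with ARNT and binds a short motif near target genes whose core reads ACGTG or GCGTG. The targets serve glycolysis, blood vessel growth, pH control and the removal of mitochondria, and they include EGLN1 and EGLN3 themselves, which closes a feedback loop. HIF alpha activity is set largely at the level of the protein, which was not measured here, so the values below are transcript levels only.

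To show what lies before the RefSeq start of the 5 members that were higher with both siRNAs, the 250 bases before the RefSeq start on GRCh38.p14 were taken for BNIP3, ANKRD37, CA9, ADM and EGLN3, written 5′ to 3′ on the strand of the gene. Capitals mark each ACGTG or GCGTG on either strand, so that CACGT and CACGC are the same motifs on the opposite strand, and CACGTG holds ACGTG on both strands and was counted as 2 matches. The windows are chr10:131981924-131982173 on the minus strand for BNIP3, chr4:185396591-185396840 on the plus strand for ANKRD37, chr9:35673678-35673927 on the plus strand for CA9, chr11:10304823-10305072 on the plus strand for ADM and chr14:33951075-33951324 on the minus strand for EGLN3. GENCODE 29 lists starts further upstream for all 5 genes, so that the windows of BNIP3 and CA9 lie in part, and those of ANKRD37, ADM and EGLN3 wholly, inside its gene spans.
BNIP3: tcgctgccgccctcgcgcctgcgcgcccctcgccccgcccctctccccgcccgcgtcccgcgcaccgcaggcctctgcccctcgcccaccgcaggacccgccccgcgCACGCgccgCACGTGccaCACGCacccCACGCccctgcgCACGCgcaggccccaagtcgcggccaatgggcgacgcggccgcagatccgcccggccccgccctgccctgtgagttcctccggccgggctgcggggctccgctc
ANKRD37: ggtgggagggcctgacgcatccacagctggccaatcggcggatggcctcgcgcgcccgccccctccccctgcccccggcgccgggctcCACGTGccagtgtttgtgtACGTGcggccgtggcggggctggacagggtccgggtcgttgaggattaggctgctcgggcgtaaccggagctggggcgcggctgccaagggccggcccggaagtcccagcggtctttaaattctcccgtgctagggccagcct
CA9: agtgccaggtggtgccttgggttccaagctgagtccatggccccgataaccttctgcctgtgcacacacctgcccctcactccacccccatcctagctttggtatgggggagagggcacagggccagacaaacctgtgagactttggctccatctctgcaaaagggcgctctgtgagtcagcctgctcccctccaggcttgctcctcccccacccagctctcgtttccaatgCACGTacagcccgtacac
ADM: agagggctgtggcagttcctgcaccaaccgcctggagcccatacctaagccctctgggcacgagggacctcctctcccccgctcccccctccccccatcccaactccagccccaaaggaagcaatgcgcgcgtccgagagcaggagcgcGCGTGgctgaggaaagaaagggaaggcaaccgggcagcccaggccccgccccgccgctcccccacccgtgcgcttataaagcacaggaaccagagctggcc
EGLN3: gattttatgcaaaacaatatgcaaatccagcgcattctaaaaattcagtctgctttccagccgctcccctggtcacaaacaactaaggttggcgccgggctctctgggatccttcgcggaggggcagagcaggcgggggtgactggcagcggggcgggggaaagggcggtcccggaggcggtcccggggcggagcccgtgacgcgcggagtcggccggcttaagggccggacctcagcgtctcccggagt

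The BNIP3 window holds 6 matches, 2 of ACGTG and 4 of GCGTG, crowded between 143 and 104 bases before the start. That of ANKRD37 holds 3 matches, all of ACGTG, at 162, 161 and 143 bases before the start. The CA9 window has 1 ACGTG, 18 bases before the start, and the ADM window has 1 GCGTG, 101 bases before it. The window of EGLN3 has neither motif, which says only that these letters are not in this window. RefSeq windows were used for 8 of the 10 genes, 9 windows in all, and BNIP3L and VEGFA are named only. Of the other windows, those of EGLN1 and EPAS1 hold 1 match each, and HIF1A has 1 match at the first of its 2 starts. Among all 35116 RefSeq windows cut to the same length, 43.2% held at least 1 match, 7.76% held 3 or more and 0.646% held 6 or more. A match is a string of letters and not a measured binding site.

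Library totals were 35.5 to 49.9 M gene counts. SKP2, the F-box protein of the SCF ubiquitin ligase, was at 3.31 to 3.91 CPM in SKP2-1 libraries and 5.69 to 6.11 CPM in SKP2-2 libraries, against 57.5 to 64.9 CPM in NC libraries (log2 fold change -4.11 and -3.38). SLC39A7 passed the threshold with neither siRNA (log2 fold change 0.01, adjusted p = 0.936, and 0.09, adjusted p = 0.0868). All 6 markers set for MDA-MB-231 (VIM, CD44, MSN, AXL, CAV1 and LGALS1) were above 1 CPM in every group. Of the 8 luminal markers, 5 were also above 1 CPM in every group (ERBB2, GATA3, CDH1, EPCAM and KRT19). The hormone receptors among them, ESR1 and PGR, stayed below 0.4 CPM in every library. Immune markers summed to 6.91 to 7.28 CPM in SKP2-1 libraries and 7.5 to 8.0 CPM in SKP2-2 libraries, against 4.44 to 4.89 CPM in NC libraries. Endothelial markers summed to 72.5 to 74.0 CPM with SKP2-1 and 60.4 to 74.9 CPM with SKP2-2, against 39.8 to 54.4 CPM in NC, most of it ROBO4, with ERG at 0 throughout and CDH5 at 0 in NC. Fibroblast markers summed to 25.0 to 27.9 CPM with SKP2-1 and 14.1 to 19.2 CPM with SKP2-2, against 25.4 to 40.4 CPM in NC. Most of that sum was COL1A1 (16.0 and 8.79 against 23.6 CPM on average), while PDGFRB rose with SKP2-1 (log2 fold change 0.41) and LUM rose with both (0.47 and 0.69). Luminal markers summed to 395 to 416 CPM with SKP2-1 and 391 to 417 CPM with SKP2-2, against 300 to 318 CPM in NC. KRT19 carried most of that difference (281 and 292 against 190 CPM on average), whereas CDH1 fell (8.15 and 3.89 against 12.4 CPM). These sums moved with the groups and their part in the results was not tested. On the third principal component, with 11.3% of the variance, SKP2-2 replicate 3 (-11.65) and NC replicate 1 (-23.49) stood apart from SKP2-2 replicate 1 (17.32) and NC replicate 3 (16.08). Without SKP2-2 replicate 3 and NC replicate 1, a pair chosen after seeing the data, none of the 30 calls on the members (10 genes in 3 comparisons) changed. Without SKP2-2 replicate 1, HIF1A with SKP2-1 lost its call (edgeR, adjusted p = 0.0528). ANKRD37 between the siRNAs gained a call there (adjusted p = 0.0307). Leaving out some other single libraries changed calls as well, as given below.

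The comparisons with NC ask how the transcripts of the HIF system stand when SKP2 is lowered. Levels are read counts scaled to library size with TMM factors (normalized CPM), and adjusted p-values come from edgeR's quasi-likelihood test, two-sided, with Benjamini-Hochberg adjustment over all 16575 genes and a threshold of 0.05. With SKP2-1, 8 of the 10 members rose, 1 fell and 1 did not pass, with a median log2 fold change of 0.37 against 0.02 over all tested genes. The background was high: 45.5% of all tested genes passed in that comparison, 25.0% as higher and 20.5% as lower. With SKP2-2, 6 members rose, 2 fell and 2 did not pass, with a median of 0.54 against 0.03 over all tested genes, and 49.4% of all tested genes passed, 25.2% as higher and 24.1% as lower. Fitted on the SKP2-1 and NC libraries alone, the split over all genes in the first comparison was 3341 higher and 4255 lower, where the fit of all 9 libraries gave 4150 higher and 3398 lower, and the median of all genes moved by -0.067. Both comparisons share the NC libraries. The members were chosen with earlier results of these data known, so the counts and medians describe the chosen genes and test no excess. CA9, BNIP3, EGLN3 and ADM rose with both siRNAs and stood higher with SKP2-2 than with SKP2-1. ANKRD37 rose with both as well, EPAS1 and VEGFA rose with SKP2-1 and fell with SKP2-2, and the largest change was that of CA9 with SKP2-2. The shares of all tested genes that rose with both siRNAs, or moved in opposite directions, were not counted. These patterns over both siRNAs therefore have no background beside them. The plot of levels by library shows the 3 values of each gene in each group.

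**Figure D1:**
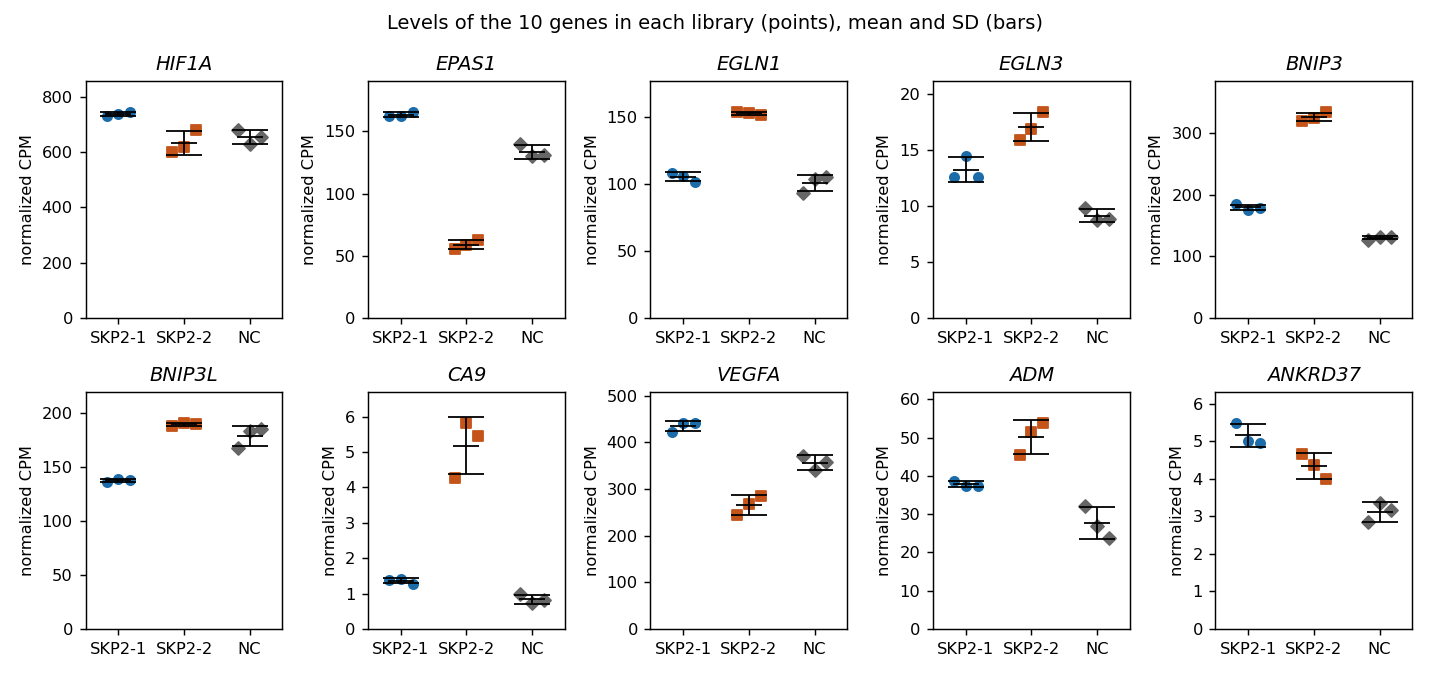
Normalized CPM (vertical axes, from 0) of the 10 genes in the SKP2-1, SKP2-2 and NC libraries, 1 point per library, with the mean and SD of 3 libraries as bars. CA9 and BNIP3 are highest in SKP2-2 cells (means of 5.18 and 326 CPM, against 0.839 and 130 CPM in NC), EPAS1 is lowest there (59.1 CPM, against 134 CPM in NC), and HIF1A differs little between the groups.

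HIF1A (ENSG00000100644, chromosome 14, 61695513 to 61748259, GRCh38) encodes the subunit found in nearly all cells. It was at 729, 737 and 745 CPM in SKP2-1 libraries, at 601, 617 and 682 CPM in SKP2-2 libraries, and at 680, 629 and 653 CPM in NC libraries. The SKP2-1 values lay above all NC values, while the SKP2-2 and NC values overlapped. HIF1A was 1.13-fold higher with SKP2-1 (737 ± 7.84 against 654 ± 25.7 CPM, SD, n = 3 each, log2 fold change 0.17, SE 0.05, adjusted p = 0.0173), and this call was lost under 6 of 18 alternatives, 4 of which left out 1 library (adjusted p = 0.089 without NC replicate 2). With SKP2-2 it averaged 633 ± 42.5 CPM (SD, n = 3), a log2 fold change of -0.05 with an SE of 0.05 that did not pass (adjusted p = 0.504).

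EPAS1 (ENSG00000116016, chromosome 2, 46293667 to 46386703) encodes HIF-2 alpha, the subunit best known from endothelium, kidney and lung. Its level was 162, 162 and 165 CPM in SKP2-1 libraries, 55.5, 58.7 and 63.1 CPM in SKP2-2 libraries, and 140, 130 and 131 CPM in NC libraries. Every SKP2-2 library was below every NC library and every SKP2-1 library was above every NC library. EPAS1 rose 1.22-fold with SKP2-1 (log2 fold change 0.29, SE 0.05, adjusted p = 4.37e-04) and was 2.26 times lower with SKP2-2 (-1.18, SE 0.05, adjusted p = 1.44e-09). Set against SKP2-1 cells, SKP2-2 cells had 2.76 times less EPAS1 RNA (-1.46, SE 0.05, adjusted p = 1.78e-10). Set per kilobase of exon, HIF1A exceeded EPAS1 by a factor of 6.39, 6.45 and 6.39 in SKP2-1 libraries and of 15.4, 14.9 and 15.3 in SKP2-2 libraries, against 6.89, 6.87 and 7.06 in NC libraries. The ratio thus stood apart in the SKP2-2 libraries, where HIF1A was little changed and EPAS1 was low.

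EGLN1 (ENSG00000135766, chromosome 1, 231363751 to 231425044), the main oxygen sensor of the family, moved with SKP2-2. Its values were 108, 106 and 102 CPM in SKP2-1 libraries, 154, 153 and 151 CPM in SKP2-2 libraries, and 93.5, 103 and 105 CPM in NC libraries. The SKP2-1 and NC values overlapped and the SKP2-2 values lay above both. EGLN1 rose 1.52-fold with SKP2-2 (log2 fold change 0.60, SE 0.05, adjusted p = 3.93e-07) and did not pass with SKP2-1 (0.07, SE 0.05, adjusted p = 0.308).

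EGLN3 (ENSG00000129521, chromosome 14, 33924231 to 34462774), a family member known for strong induction in hypoxia, was less abundant. It had 12.6, 14.5 and 12.6 CPM in SKP2-1 libraries, 15.9, 16.9 and 18.4 CPM in SKP2-2 libraries, and 9.81, 8.80 and 8.87 CPM in NC libraries. No 2 of the groups overlapped, with SKP2-2 highest and NC lowest. EGLN3 rose 1.45-fold with SKP2-1 (log2 fold change 0.53, SE 0.09, adjusted p = 1.74e-04) and 1.87-fold with SKP2-2 (0.90, SE 0.08, adjusted p = 1.32e-06). Per kilobase of exon, EGLN1 exceeded EGLN3 by 8.08 ± 0.679 times with SKP2-1 and 9.10 ± 0.738 times with SKP2-2, against 11.2 ± 1.32 times in NC (SD, n = 3 each).

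BNIP3 (ENSG00000176171, chromosome 10, 131966455 to 131982013) encodes a receptor on the outer mitochondrial membrane that binds LC3 proteins and brings mitochondria to autophagy. Its level was 184, 175 and 179 CPM in SKP2-1 libraries, 320, 324 and 334 CPM in SKP2-2 libraries, and 127, 132 and 132 CPM in NC libraries. The 3 groups did not overlap, in the order SKP2-2, SKP2-1 and NC from high to low. BNIP3 rose 1.38-fold with SKP2-1 (log2 fold change 0.46, SE 0.04, adjusted p = 1.08e-06) and 2.5-fold with SKP2-2 (1.32, SE 0.04, adjusted p = 9.60e-11). Of its pseudogene copies, BNIP3P1 had 16 to 61 counts per library and the others at most 9.

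BNIP3L (ENSG00000104765, chromosome 8, 26382898 to 26505636), the closely related receptor also called NIX, went the other way with SKP2-1. It was at 136, 139 and 138 CPM in SKP2-1 libraries, at 188, 191 and 189 CPM in SKP2-2 libraries, and at 167, 183 and 185 CPM in NC libraries. The SKP2-1 values lay below all others. BNIP3L was 1.30 times lower with SKP2-1 (log2 fold change -0.38, SE 0.04, adjusted p = 1.47e-05) and did not pass with SKP2-2 (0.09, SE 0.05, adjusted p = 0.134), although its SKP2-2 values lay above all NC values. That value passed with library totals in place of TMM (0.13, adjusted p = 0.0135). Per kilobase of exon, BNIP3 over BNIP3L was 1.10, 1.02 and 1.05 in SKP2-1 libraries and 1.38, 1.37 and 1.43 in SKP2-2 libraries, against 0.614, 0.585 and 0.577 in NC libraries. On this measure, which depends on the exon lengths used, BNIP3 was the higher of the pair in every library of both siRNAs. It was the lower in every NC library. PNMA2, which shares exon bases with BNIP3L on the opposite strand, had log2 fold changes of -0.09 (adjusted p = 0.195) with SKP2-1 and -1.36 with SKP2-2, and the strand used in counting is not given in the sources used here.

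CA9 (ENSG00000107159, chromosome 9, 35673856 to 35681159) encodes carbonic anhydrase IX, a cell surface enzyme that helps tumour cells to control pH and is widely used as a hypoxia marker. It rests on few reads, with 59, 55 and 63 counts in SKP2-1 libraries, 173, 257 and 254 counts in SKP2-2 libraries, and 35, 33 and 38 counts in NC libraries. Its level was 1.39, 1.41 and 1.28 CPM in SKP2-1 libraries, 4.27, 5.83 and 5.44 CPM in SKP2-2 libraries, and 0.984, 0.729 and 0.804 CPM in NC libraries. The groups were fully separate, and the lowest SKP2-2 library was above every SKP2-1 library. CA9 rose 1.63-fold with SKP2-1 (log2 fold change 0.70, SE 0.18, adjusted p = 0.00554) and 6.22-fold with SKP2-2 (2.64, SE 0.16, adjusted p = 1.90e-08). ARHGEF39, which shares exon bases with CA9 on the opposite strand, fell with both siRNAs (log2 fold change -1.45 and -0.59), the direction opposite to that of CA9.

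VEGFA (ENSG00000112715, chromosome 6, 43770184 to 43786487), the main growth factor for blood vessels, had 422, 441 and 442 CPM in SKP2-1 libraries, 243, 267 and 285 CPM in SKP2-2 libraries, and 370, 340 and 358 CPM in NC libraries. All SKP2-1 values were above the NC values and all SKP2-2 values were below them. VEGFA rose 1.22-fold with SKP2-1 (log2 fold change 0.29, SE 0.06, adjusted p = 0.00106) and was 1.34 times lower with SKP2-2 (-0.43, SE 0.06, adjusted p = 4.11e-05). It was the other member, with EPAS1, that moved in opposite directions with the siRNAs.

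ADM (ENSG00000148926, chromosome 11, 10304680 to 10307397) encodes adrenomedullin, a secreted peptide that widens blood vessels. It was at 38.8, 37.4 and 37.4 CPM in SKP2-1 libraries, at 45.3, 51.5 and 53.9 CPM in SKP2-2 libraries, and at 32.2, 27.0 and 23.8 CPM in NC libraries. The groups did not overlap, though NC replicate 1, the library that stood apart, was the NC library nearest to the SKP2-1 values. ADM rose 1.37-fold with SKP2-1 (log2 fold change 0.46, SE 0.10, adjusted p = 0.00394), a call that was lost when only the SKP2-1 and NC libraries were fitted (0.38, adjusted p = 0.0586), and 1.82-fold with SKP2-2 (0.86, SE 0.10, adjusted p = 4.31e-05).

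ANKRD37 (ENSG00000186352, chromosome 4, 185396021 to 185400628), a small ankyrin repeat protein and HIF target, differed from the other 4 genes that rose with both siRNAs in that its SKP2-1 values were the highest. They were 5.5, 5.00 and 4.97 CPM in SKP2-1 libraries, against 4.66, 4.38 and 3.99 CPM in SKP2-2 libraries and 2.84, 3.36 and 3.17 CPM in NC libraries. Both siRNA groups lay above NC. ANKRD37 rose 1.64-fold with SKP2-1 (log2 fold change 0.72, SE 0.10, adjusted p = 7.48e-05) and 1.38-fold with SKP2-2 (0.47, SE 0.10, adjusted p = 0.00209). UFSP2, which shares exon bases with ANKRD37 on the opposite strand, passed with neither siRNA (log2 fold change -0.07 with SKP2-1 and 0.13 with SKP2-2).

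**Figure D2:**
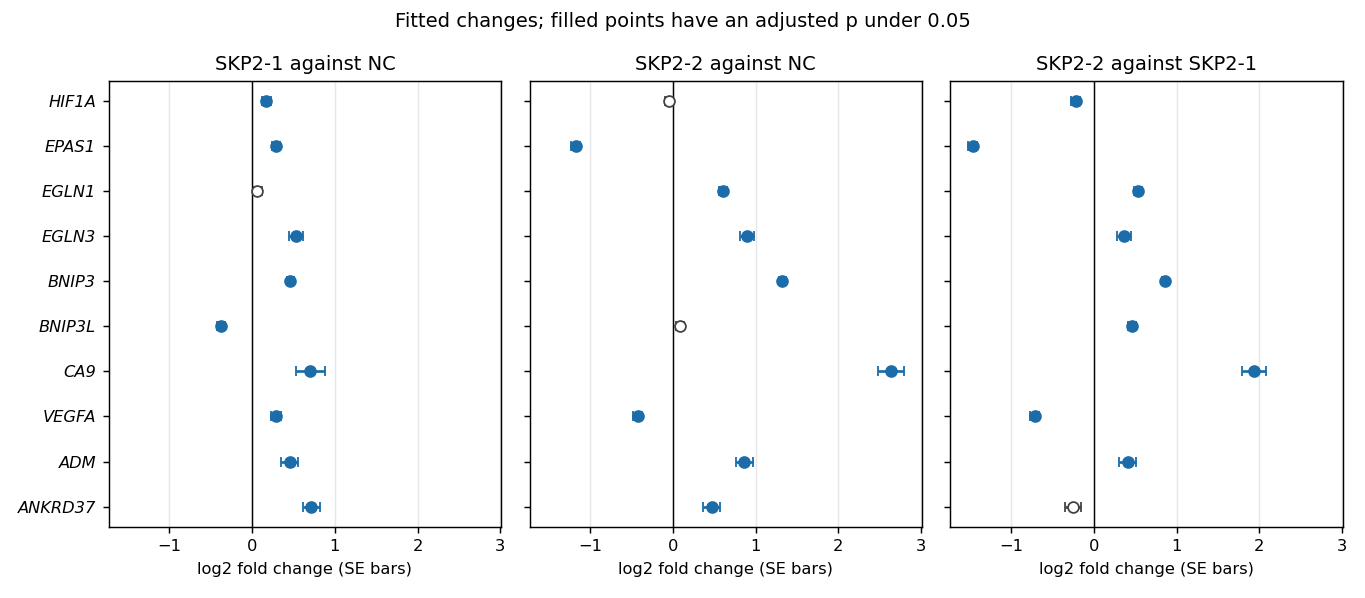
Log2 fold changes of the 10 genes (horizontal axes) with SE bars, for SKP2-1 against NC, SKP2-2 against NC and SKP2-2 against SKP2-1, with filled points for an adjusted p under 0.05. CA9 reaches 2.64 and BNIP3 1.32 with SKP2-2, EPAS1 reaches -1.18 there against 0.29 with SKP2-1, and open points mark EGLN1 with SKP2-1, HIF1A and BNIP3L with SKP2-2, and ANKRD37 between the siRNAs.

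The siRNAs were also set against each other, which asks whether the members respond alike to both. They did not for most members: 9 of 10 passed, 6 as higher and 3 as lower with SKP2-2, while 50.5% of all tested genes passed (25.2% higher and 25.3% lower). CA9 was 3.82-fold higher with SKP2-2 than with SKP2-1 (log2 difference 1.93, SE 0.15, adjusted p = 1.67e-07). BNIP3 followed at 1.81-fold (0.86), then EGLN1 (0.54), BNIP3L (0.46), ADM (0.41) and EGLN3 (0.37). Lower with SKP2-2 were EPAS1 (-1.46), VEGFA (-0.72) and HIF1A (-0.22, SE 0.05, adjusted p = 0.00389). ANKRD37 did not pass (-0.25, SE 0.10, adjusted p = 0.0538), and it passed under 5 of 18 alternatives. The libraries of the compared groups did not overlap for 9 members with SKP2-1 against NC, for 9 with SKP2-2 against NC and for all 10 between the siRNAs, where the shares over all tested genes were 54.8%, 53.6% and 64.0%.

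Levels of different genes were compared only per kilobase of exon. On this measure HIF1A was the highest of the 10 genes in every group, at 143 ± 1.52 CPM per kilobase with SKP2-1, 123 ± 8.25 with SKP2-2 and 127 ± 4.99 in NC (SD, n = 3 each). BNIP3 and BNIP3L took the next places in both siRNA groups, BNIP3 first (33.7 and 61.2 CPM per kilobase). BNIP3L came next in NC at 41.4 CPM per kilobase, ahead of VEGFA and BNIP3, whose ranges overlapped there. EPAS1 held the fifth place with SKP2-1 (22.3 CPM per kilobase) and in NC (18.3) and the seventh with SKP2-2 (8.09). ANKRD37, EGLN3 and CA9 were the lowest 3 in every group, with CA9 lowest at 0.814 CPM per kilobase with SKP2-1 and 0.502 in NC, while with SKP2-2 it stood above both others at 3.10. Neighbours in the order also overlapped for EGLN1 and ADM and for ANKRD37 and EGLN3 with SKP2-1, for ADM and VEGFA with SKP2-2, and for EGLN3 and ANKRD37 in NC.

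**Figure D3:**
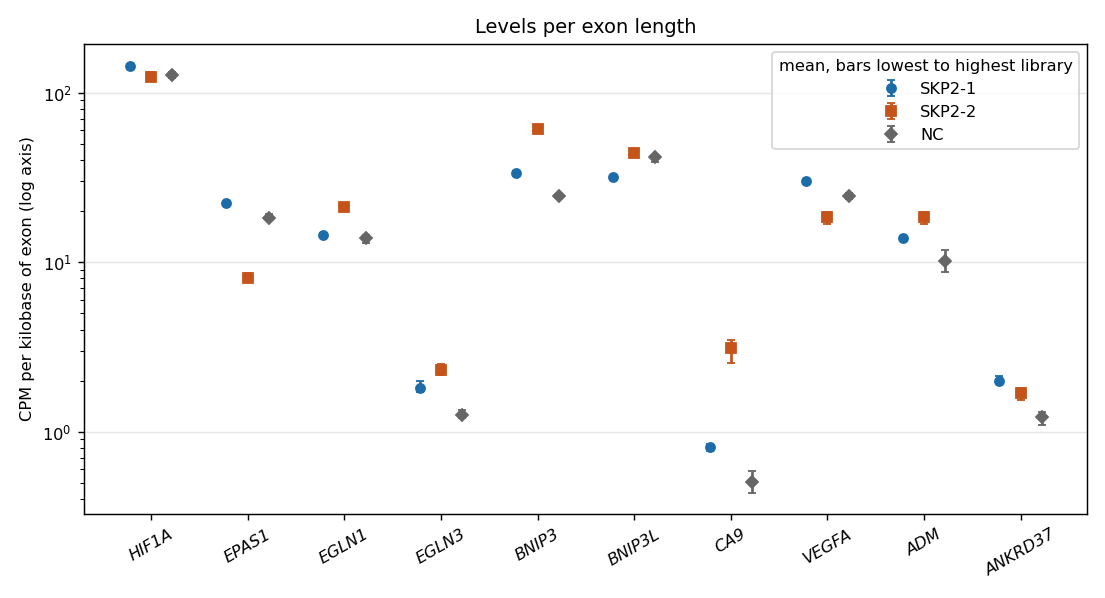
Mean CPM per kilobase of GENCODE 29 exon (log axis) of the 10 genes in SKP2-1, SKP2-2 and NC cells, with bars from the lowest to the highest of 3 libraries. HIF1A lies above 100 in every group, and CA9 moves past EGLN3 and ANKRD37 in SKP2-2 cells alone (3.10 CPM per kilobase, against 0.502 in NC).

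Partners and regulators of HIF come before the further targets. The counts of this list and of those below stand beside the shares over all tested genes. With SKP2-1, 25.0% of all tested genes were higher and 20.5% lower, and with SKP2-2, 25.2% were higher and 24.1% lower. Of 17 tested, among them ARNT, VHL and the coactivator EP300, 7 rose, none fell and 10 did not pass with SKP2-1 (median log2 fold change 0.15), and 8 rose, 2 fell and 7 did not pass with SKP2-2 (median 0.07). RBX1, the RING subunit of the VHL ligase and also of the SCF ligase that contains SKP2, rose with both siRNAs (0.41, adjusted p = 9.76e-04, and 0.45, adjusted p = 3.91e-04). ARNT2, a partner subunit best known from neurons, fell with SKP2-2 (-0.55) and was at -0.10 with SKP2-1 (adjusted p = 0.122), a value that passed under 4 of 18 alternatives. P4HTM rose with SKP2-2 (0.40, adjusted p = 7.79e-04). It was at 0.18 with SKP2-1 (adjusted p = 0.0765), a value that passed under some of the 18 alternatives. CITED2, a hypoxia-induced protein that competes with HIF for EP300, rose 2.02-fold with SKP2-2 (1.02, adjusted p = 0.00964), with libraries spread over 75.6, 91.5 and 120 CPM against 61.5, 42.3 and 38.5 CPM in NC. With SKP2-1 it was at 0.65 (adjusted p = 0.0579), and it passed under 5 of 18 alternatives, 3 of which left out NC replicate 1, SKP2-2 replicate 3 or both (adjusted p between 1.46e-05 and 0.158 over all). Without SKP2-2 replicate 3 and NC replicate 1, 7 rose and 3 fell with SKP2-1 and 7 rose and 3 fell with SKP2-2.

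Most of the listed hypoxia targets of glucose metabolism rose with SKP2-2. Of 22 tested, 19 rose, 1 fell and 2 did not pass with SKP2-2 (median log2 fold change 0.42), and 9 rose, 1 fell and 12 did not pass with SKP2-1 (median 0.11). HK2, which traps glucose in the cell by phosphorylation, was at 179, 176 and 172 CPM in SKP2-1 libraries and 200, 197 and 198 CPM in SKP2-2 libraries, against 100, 106 and 106 CPM in NC libraries. It rose with both (0.76 and 0.93), as did PFKFB4, a regulator of glycolytic flux (0.32 and 1.29), and the aldolase ALDOC (0.53 and 1.31). SLC2A3, the glucose transporter GLUT3, was the exception: at 84.6, 84.4 and 87.9 CPM in SKP2-1 libraries and 16.0, 15.3 and 15.9 CPM in SKP2-2 libraries, against 52.4, 56.1 and 61.1 CPM in NC libraries. It rose 1.51-fold with SKP2-1 (0.60, adjusted p = 1.71e-06) and was 3.60 times lower with SKP2-2 (-1.85, adjusted p = 1.11e-10).

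Among 10 tested secreted and vascular targets, 6 rose and 1 fell with SKP2-1 (median 0.31) and 5 rose and 2 fell with SKP2-2 (median 0.49). STC1, a glycoprotein hormone of calcium and phosphate handling, was at 314, 310 and 317 CPM in SKP2-1 libraries and 128, 122 and 129 CPM in SKP2-2 libraries, against 85.9, 88.3 and 89.3 CPM in NC libraries, a rise of 3.57-fold with SKP2-1 and of 1.44-fold with SKP2-2. ANGPTL4, an inhibitor of lipoprotein lipase, rose 2.64-fold with SKP2-1 and 2.53-fold with SKP2-2. PDGFB, a growth factor for pericytes, was 2.90 times lower with SKP2-1 (-1.53, adjusted p = 2.55e-05) and 3.01-fold higher with SKP2-2 (1.59, adjusted p = 1.24e-06). IGFBP3, which binds insulin-like growth factors, rose with SKP2-1 (0.74) and fell with SKP2-2 (-0.47).

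Of 6 collagen-modifying targets, 5 rose and none fell with SKP2-1 (median 0.49), and 5 rose and 1 fell with SKP2-2 (median 0.42). LOX, which crosslinks collagen, rose 2.11-fold with SKP2-1 and 1.51-fold with SKP2-2, and the collagen lysyl hydroxylase PLOD2 rose 1.81-fold and 1.23-fold. P4HA1, a collagen prolyl hydroxylase subunit, rose by 0.59 and 0.57 on the log2 scale, and LOXL2 rose by 0.39 and 0.55.

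The remaining 24 hypoxia targets of mixed function counted 14 risers and 3 fallers with SKP2-1 (median 0.33) and 16 risers and 5 fallers with SKP2-2 (median 0.60). NDRG1, a stress-responsive protein often used as a hypoxia marker, was at 411, 423 and 431 CPM in SKP2-1 libraries and 384, 393 and 384 CPM in SKP2-2 libraries, against 128, 138 and 135 CPM in NC libraries. It rose 3.15-fold and 2.89-fold. PPFIA4, a liprin, rose 1.81-fold with SKP2-1 and 4.62-fold with SKP2-2. TMEM45A, a membrane protein, fell with SKP2-1 (-0.57) and rose 3.49-fold with SKP2-2. TFRC, the transferrin receptor of iron uptake, was at 470, 466 and 481 CPM in SKP2-1 libraries and 99.7, 98.1 and 97.7 CPM in SKP2-2 libraries, against 576, 624 and 678 CPM in NC libraries, and was 6.36 times lower with SKP2-2 (-2.67, adjusted p = 4.87e-12).

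For 6 tested genes known to prefer EPAS1 over HIF1A, 3 rose and 2 fell with SKP2-1 (median 0.14), and 3 rose and 1 fell with SKP2-2 (median 0.11), where EPAS1 itself was low. SLC11A2, the iron transporter DMT1, fell with both (-0.34 and -1.45, adjusted p = 0.00385 and 2.78e-08). The membrane protease MMP14 rose with both (0.92 and 0.52), as did TGFA, a ligand of the EGF receptor (0.64 and 0.30). CYBRD1, a ferric reductase, rose with SKP2-1 (0.62) and was at -0.08 with SKP2-2 (adjusted p = 0.156), which passed under 4 of 18 alternatives.

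Around BNIP3 and BNIP3L, 13 mitophagy receptors and partners split into 5 risers and 3 fallers with SKP2-1 (median 0.11) and 6 risers and 2 fallers with SKP2-2 (median 0.17). BCL2, the survival protein that BNIP3 binds, was at 8.68, 7.44 and 7.48 CPM in SKP2-1 libraries and 17.0, 17.5 and 16.8 CPM in SKP2-2 libraries, against 20.0, 24.2 and 23.9 CPM in NC libraries. It was 2.89 times lower with SKP2-1 and 1.33 times lower with SKP2-2. PINK1, the kinase that marks damaged mitochondria, rose with both (0.38 and 0.48), as did MAP1LC3B, the autophagosome protein that both receptors bind (0.49 and 0.25). PHB2, a mitophagy receptor of the inner membrane, fell with SKP2-1 (-0.42).

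Carbonic anhydrases other than CA9 moved in both directions. Of 14 listed, 6 were tested, of which 2 rose and 2 fell with SKP2-1 (median -0.17) and 1 rose and 2 fell with SKP2-2 (median -0.34). CA12, the other tumour-associated enzyme of the cell surface, rose with SKP2-1 (0.47) and was at 0.09 with SKP2-2 (adjusted p = 0.25). The cytosolic CA2 was 2.95 times lower with SKP2-2, and CA13 fell with both (-0.82 and -1.12). The mitochondrial CA5B fell with SKP2-1 (-0.30, adjusted p = 0.0204, a call lost under 4 of 18 alternatives) and rose with SKP2-2 (0.81).

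Ligands and receptors related to VEGFA and ADM numbered 9 tested of 15 listed, with 5 risers and no faller with SKP2-1 (median 0.26) and 3 risers and 2 fallers with SKP2-2 (median 0.17). The neuropilins, coreceptors of VEGFA, moved in the directions of VEGFA itself: NRP1 was at 0.44 with SKP2-1 and -0.26 with SKP2-2, and NRP2 at 0.26 and -1.20, all past the threshold. KDR, the main signalling receptor of VEGFA, rose with both (1.04 and 0.43). PGF, a ligand of the VEGF family, rose too (1.53-fold and 2.24-fold), and its call with SKP2-1 was lost under 3 of 18 alternatives.

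**Figure D4:**
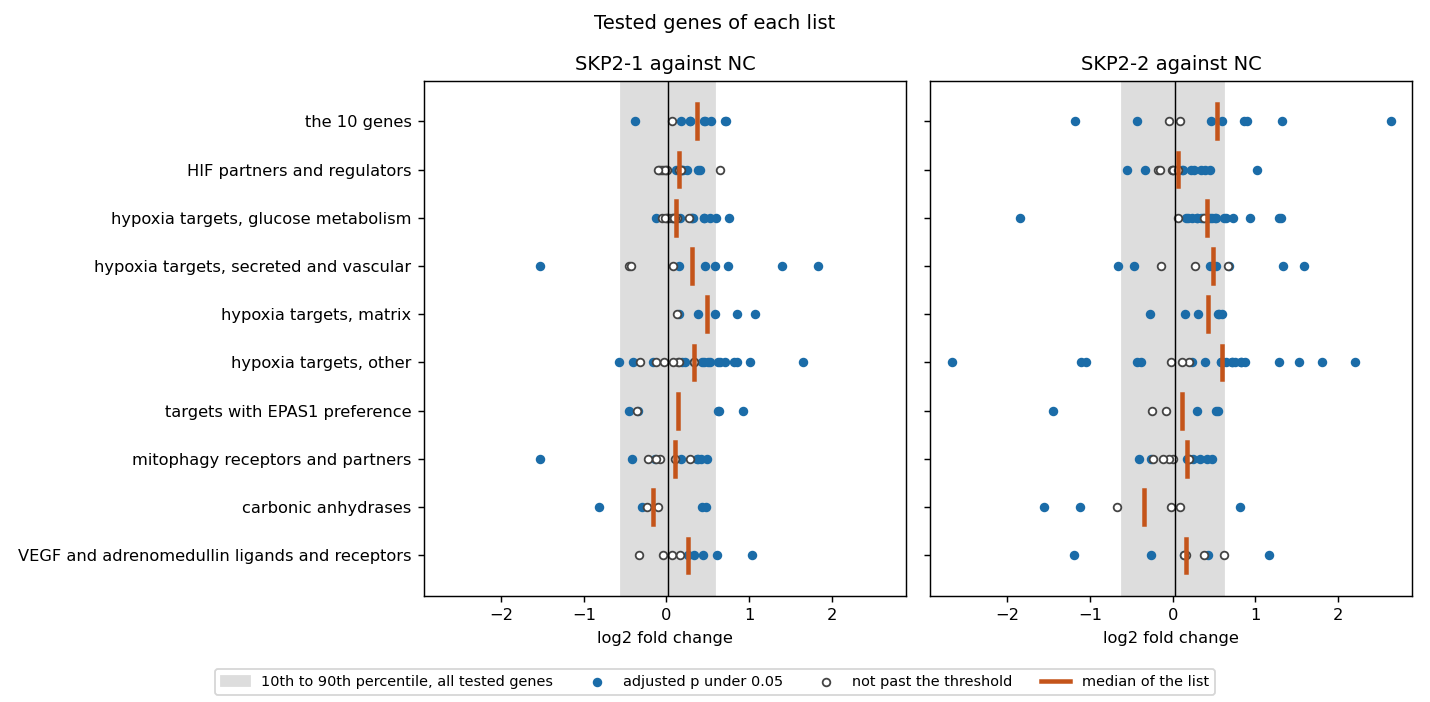
Log2 fold changes (horizontal axes) of the 10 genes and of the tested genes of 9 related lists, SKP2-1 against NC and SKP2-2 against NC, 1 point per gene, filled for an adjusted p under 0.05, with the median of each list as a bar and the 10th to 90th percentile of all tested genes in grey. The glucose list with SKP2-2 has 19 of 22 points past the threshold to the right, with SLC2A3 alone far to the left at -1.85.

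The lists were described by their counts and medians, and no list was tested as a set. The lists, like the members, were chosen with earlier results of these data known. An excess over all tested genes is therefore no independent result. With 45.5% of all tested genes past the threshold with SKP2-1 and 49.4% with SKP2-2, a call is common in these data. Without SKP2-2 replicate 3 and NC replicate 1, the glucose list held 9 risers and 2 fallers with SKP2-1 and 19 risers and 1 faller with SKP2-2, and the mixed list 15 and 4 with SKP2-1 and 16 and 5 with SKP2-2.

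The genes whose profile over the 9 libraries lay nearest to those of HIF1A, EPAS1 and BNIP3 were sought among 12120 genes of at least 2 CPM on average. Likeness was the root mean square difference of log2(CPM + 0.5), each gene centred on its NC mean. The genes were picked for likeness over these same libraries, so the changes they share below are set by that choice and are no separate result. Nearest to HIF1A were IKBKB, a kinase of the NF-kB pathway (0.03), the kinesin KIF13B (0.04) and CKAP4 (0.04), which have the same small excess in SKP2-1 libraries. Nearest to EPAS1 were NRP2 (0.05), ADSS2, an enzyme of adenine nucleotide synthesis (0.05), and CARMIL1, a regulator of actin capping (0.06). With SKP2-2 they were 2.29, 2.24 and 2.20 times lower than in NC, and with SKP2-1 they were 1.20-fold, 1.19-fold and 1.24-fold higher. Nearest to BNIP3 were PLEK2 (0.06), ZNF367 (0.06) and the semaphorin SEMA7A (0.09), with log2 fold changes of 0.47, 0.36 and 0.38 with SKP2-1 and 1.40, 1.33 and 1.27 with SKP2-2.

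**Figure D5:**
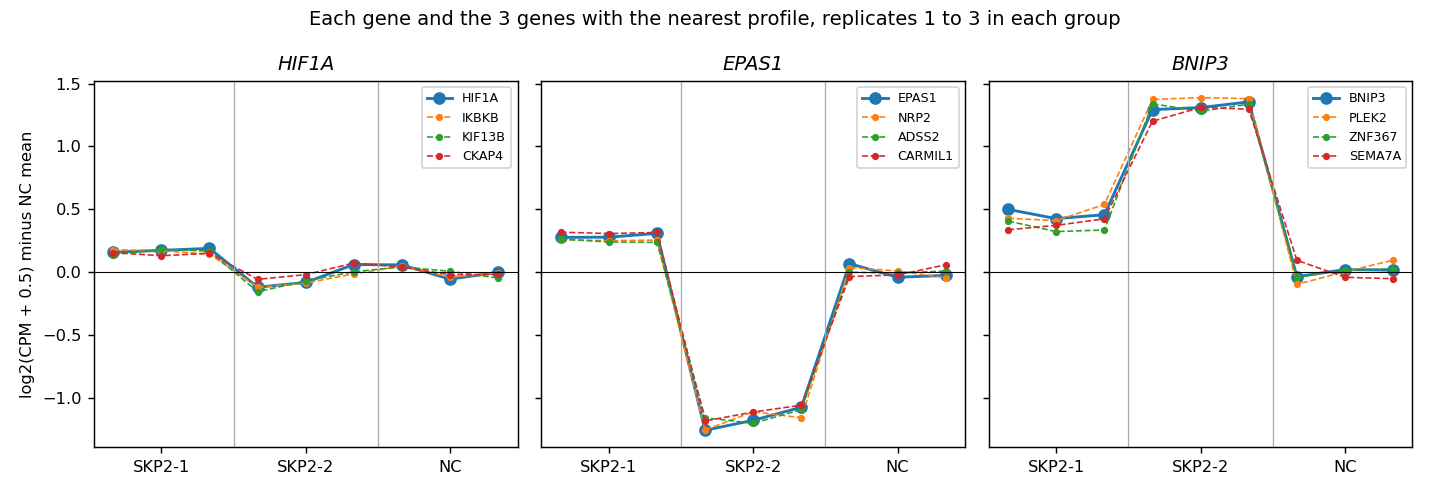
Log2(CPM + 0.5) minus the NC mean (vertical axis) in the libraries of SKP2-1, SKP2-2 and NC for HIF1A, EPAS1 and BNIP3, each with the 3 genes nearest in profile, where lines only join the points of 1 gene. HIF1A and its neighbours stay close to 0, EPAS1 drops with NRP2, ADSS2 and CARMIL1 in SKP2-2 cells, and BNIP3 climbs there with PLEK2, ZNF367 and SEMA7A.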

How the data were processed

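The authors deposited unnormalized counts of reads for each Ensembl gene in 9 files, with totals of 35.5 to 49.9 M. Per the submitters' processing notes, reads were handled with STAR, HTSeq 0.6.1, Trim Galore 0.4.1 and FastQC 0.11.2, and DESeq2 1.16.1 was also used. Settings, genome build, annotation and strand are not given in the sources used here. The summary lines at the end of each file (reads in no gene and reads in several genes, among others) were left out. As shares of gene counts and summary lines together, reads in no gene were 5.34% to 5.92% and reads in several genes 3.88% to 3.97%.

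Symbols came from the supplied name table (57754 genes) and GENCODE 29 (521). Coordinates and exon lengths are GENCODE 29 on GRCh38, and upstream sequences are RefSeq, GRCh38.p14. Tests used edgeR 4.0.16 (R 4.3.3) with filterByExpr, TMM, robust quasi-likelihood fits of all 9 libraries with group as the only term, and Benjamini-Hochberg adjustment. The biological coefficient of variation was 0.089. Each gene had 1 estimate of spread for all groups, so SEs and p-values do not follow the spread within each group. On the third principal component, SKP2-1 libraries lay at -2.76 to -0.82, NC libraries at -23.49 to 16.08 and SKP2-2 libraries at -11.65 to 17.32. Alternatives included DESeq2 1.42.0 and voom (limma 3.58.1).

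All members, SKP2 and SLC39A7 are named, and from each list up to 4 tested genes of at least 2 CPM with the largest change past the threshold in either comparison with NC. Profiles nearest to HIF1A, EPAS1 and BNIP3 followed a fixed measure. The members and lists were chosen with earlier results of these data known.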

Additional observations from a re-analysis of the deposited data

Results flagged for a closer look

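Differences between the siRNAs were tested directly with edgeR over all 9 libraries, and are given as log2 values of SKP2-2 minus SKP2-1. Among the members, 9 passed: HIF1A (-0.22), EPAS1 (-1.46), EGLN1 (0.54), EGLN3 (0.37), BNIP3 (0.86), BNIP3L (0.46), CA9 (1.93), VEGFA (-0.72) and ADM (0.41). Among the named genes of the related lists, 7 passed in opposite directions against NC and differed between the siRNAs: SLC2A3 (-2.44), PDGFB (3.12), IGFBP3 (-1.21), TMEM45A (2.38), CA5B (1.11), NRP2 (-1.45) and NRP1 (-0.70). The named genes were picked for their large changes against NC in these same data. How many of all tested genes passed in opposite directions was not counted. With 50.5% of all tested genes past the threshold in this comparison, a difference between the siRNAs is common in these data.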

How the results depend on the processing

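The 30 calls on the members were repeated under 18 alternatives: RLE scaling, library totals only, no filter, a minimum of 1 CPM in at least 3 libraries, DESeq2, limma-voom, only the groups compared, replicate number as a block, each of the 9 libraries left out in turn, and, chosen after seeing the data, SKP2-2 replicate 3 and NC replicate 1 left out together. Of the 540 values, 527 kept their side of the threshold, 7 lost the call and 6 gained it. The sign differed in 1 of them, EGLN1 with SKP2-1, which passed in neither fit and was at -0.0013 (adjusted p = 0.983) with only the groups compared, and no called value reversed. The count of members called ranged from 7 to 9 with SKP2-1, 8 to 9 with SKP2-2 and 9 to 10 between the siRNAs, and with 1 library left out from 8 to 9, at 8, and from 9 to 10. Genes called ranged from 6429 to 8755, 7190 to 9149 and 7160 to 9414. HIF1A with SKP2-1 lost its call with the CPM minimum (0.14, adjusted p = 0.0541), with only the groups compared (0.10, adjusted p = 0.137), and without NC replicate 2 (0.14), SKP2-1 replicate 2 (0.17), SKP2-1 replicate 3 (0.16) or SKP2-2 replicate 1 (0.14). The cause was not tested. Each library was also taken as its deviation from its own group mean over the tested genes, and these deviations were correlated between groups. Same-numbered libraries had correlations of -0.712 to 0.099 over 9 such pairs, and 1 library correlated best with its own number in both other groups. Deviations within a group cancel out, and a strong pattern shared by NC and SKP2-2 libraries can hide a weaker one. Whether equal numbers mark a shared culture or day therefore cannot be told from these values. Among pairs with unlike numbers, the highest were 0.716 for NC replicate 1 with SKP2-2 replicate 3 and 0.675 for NC replicate 3 with SKP2-2 replicate 1. Some NC and SKP2-2 libraries thus deviated together, which the fit with group as the only term leaves out. What they share was not tested. With the replicate block, 6818, 7501 and 7500 genes and 9, 8 and 9 members were called. Low counts limit the precision of CA9 in NC (33 to 38 counts per library) and of PDGFB with SKP2-1 (19 to 23).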

Other observations

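HIF1A-AS3 (ENSG00000258667), a long noncoding RNA transcribed against HIF1A whose exons share no base with those of HIF1A in GENCODE 29, was looked at after its values were seen. It was at 1.37, 1.54 and 1.42 CPM in SKP2-1 libraries and 5.60, 5.85 and 4.91 CPM in SKP2-2 libraries, against 2.53, 1.79 and 2.48 CPM in NC libraries. It fell with SKP2-1 (log2 fold change -0.65, SE 0.15, adjusted p = 0.00332) and rose with SKP2-2 (1.27, SE 0.13, adjusted p = 4.18e-06), while HIF1A was at 0.17 and -0.05. The difference between the siRNAs was 1.92 (SE 0.14, adjusted p = 1.33e-07). The counts were 58 to 258 per library, and without the strand of counting, reads of HIF1A introns cannot be told apart from those of the antisense RNA. HIF1A-AS1 (ENSG00000258777), whose exons overlap HIF1A, had 7 to 32 counts and passed with neither siRNA (log2 fold change -0.05 and 0.39).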
